A study of Mus musculus with 8 samples.

Results

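The clustered protocadherins were examined in embryonic stem cells (ESCs) and in the neural precursor cells (NPCs) made from them. Members were the 58 genes of the count table, of 26263 in all, whose symbols name a clustered protocadherin of the alpha, beta or gamma cluster. They comprised 14 alpha genes, 22 beta genes and 22 gamma genes. The alpha genes were 12 alternate members (Pcdha1 to Pcdha12) and 2 C-type members (Pcdhac1 and Pcdhac2). The gamma genes were 12 of the A type, 7 of the B type and 3 of the C type (Pcdhgc3, Pcdhgc4 and Pcdhgc5).

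The libraries were poly(A) RNA-seq of hybrid male mouse ESC lines and of their NPCs at day 12 of in vitro corticogenesis, a culture protocol that directs ESCs towards cortical precursors. The line BJE2 stands for B/J (C57BL/6 mother, JF1 father). The line JBE6 stands for J/B, the reciprocal mating, so that each cross was represented by 1 line. ESCs were kept in serum-free medium with LIF, BMP4 and a GSK3-β inhibitor; the NPC cultures grew on Matrigel in medium with B27 lacking vitamin A and with dorsomorphin homolog 1. Each of the 4 groups (B/J ESCs, J/B ESCs, B/J NPCs and J/B NPCs) had 2 replicates, which the labels do not describe as separate cultures, so p-values measure only the spread between these 8 samples, which may be technical. The cells carry both parental genomes and no other modification is given in the labels.

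Clustered protocadherins are cadherin-like proteins of the neuronal surface. Neurons choose among the alternate promoters of the alpha, beta and gamma clusters, and the combination of proteins displayed lets a neuron tell its own branches from those of other cells through like-to-like binding. The C-type members are not chosen in this way and are used more uniformly. Promoter choice is known to involve CTCF and cohesin, which loop a promoter to a distal enhancer, and DNA methylation of the unused promoters.

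All members lie on the plus strand of mouse chromosome 18 (GRCm39, GENCODE vM39 annotation). The alpha cluster runs from 37063237 to 37320716 (257 kb), the beta cluster from 37397991 to 37657532 (260 kb) and the gamma cluster from 37794846 to 37975014 (180 kb). An alpha or a gamma transcript joins 1 long variable exon of its own, which codes for the extracellular and membrane-spanning parts, to 3' exons that all members of the cluster share. The variable exons measured 2296 to 3140 bp in the alpha cluster and 2499 to 3247 bp in the gamma cluster. The shared exons had a median length of 2866 bp in the alpha members and 2210 bp in the gamma members. Most beta genes are single exons with no shared 3' part; Pcdhb21 and Pcdhb22 have 455 bp in common.

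This arrangement bears on what a count of a member can hold. If reads on several genes were assigned to none, as common gene counters do, an alpha or gamma count rests on its variable exon alone. Their handling is not stated in the labels or methods, but the deposited counts hold a separate entry for reads with several genes. Levels were therefore compared between genes only per kb of the member's own exon. The count table also lists 3 read-through genes (Gm37013, Gm38666 and Gm38667) that include the variable exons of Pcdha4, Pcdha6 and Pcdha7, so the counts of those 3 members are uncertain and they were left out of comparisons per kb. GENCODE places exons of an antisense gene over the own exon of 17 members, among them all 2634 bp of Pcdhga10 and 1560 bp of Pcdhgc3. Reads of such pairs can be told apart only with strand, and the use of strand in counting is not stated. Of the 75-bp windows of the own exons, 4.86% to 20% in the alternate alpha members were repeated elsewhere on the chromosome, at most 4.05% in the beta members, at most 2.43% in gamma A, at most 13.5% in gamma B and none in the C-type members; reads there could be shared between members or lost to the filter on mapping quality.

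The total count on genes per library was 22537138 to 32706015. Levels below are normalized CPM (counts scaled to the TMM-normalized library size), the scale of the tests; 1 count in 1 ESC library was worth 0.0426 to 0.0533 and in 1 NPC library 0.0256 to 0.0323. Counting intervals and limits cover counting error only, since the reads carry no molecular identifiers. The labelled stages were checked by marker genes. All 8 pluripotency markers were lower in NPCs (adjusted p below 0.05) and 7 of 8 neural precursor markers were higher. The NPC libraries also held transcripts of other cell types: the summed level of 10 trophoblast markers was 61.8 to 196 in ESCs and 1094 to 3154 in NPCs, that of 10 fibroblast and mesenchyme markers 1665 to 2208 and 2084 to 3429 (without Fn1, which fell and was left out after its values were seen, 12.2 to 84.0 and 752 to 1833), and that of 7 endothelial and blood markers 38.0 to 106 and 236 to 817. In that last list Cdh5 and Kdr rose (Kdr from 0.434 to 1.45 in ESCs to 7.37 to 20.4 in NPCs) and Pecam1 fell, with Hba-a1 and Hbb-bt at 0 counts in every library. The rise in its sum came from Cdh5. Without Cdh5, left out after its values were seen, the other 6 summed to 37.8 to 106 in ESCs and 16.8 to 44.6 in NPCs. In such bulk samples, fewer cells of a type and less RNA per cell cannot be told apart.

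The first comparison asked how the 3 clusters changed between ESCs and NPCs. In ESCs the alpha and beta clusters were close to silent and the gamma cluster was not. In NPCs nearly the whole locus was on: 49 of the 58 members rose and 1, Pcdhga12, fell (edgeR's quasi-likelihood test, Benjamini-Hochberg adjusted p below 0.05 over 16399 genes). Among all genes tested 37.5% rose and 31.9% fell. Of the other 8 members, Pcdhga1 and Pcdhgb8 did not pass the test, and Pcdha4, Pcdha6, Pcdha7, Pcdhac1, Pcdhb1 and Pcdhb8 had too few counts to enter it. With no low-count filter all 58 could be fitted, and 50 rose against 29.0% of all genes fitted.

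Every NPC library lay above every ESC library in 49 of the 58 members (84.5%), against 35.3% of the genes tested. The 49 include Pcdha4, Pcdha6 and Pcdhb8, which were not tested. Every NPC library lay below every ESC library in Pcdhga12 alone, against 31.2% of the genes tested. By cluster, 10 of 14 alpha, 20 of 22 beta and 19 of 22 gamma members rose. The median log2 fold change of the members tested was 6.59 over 10 alpha, 7.86 over 20 beta and 2.86 over 22 gamma members, beside 0.17 over all genes tested. Fitted fold changes of genes with no count in ESCs depend on the prior count; with these 9 members set to their lower bound, the medians were 6.15 for alpha and 6.62 for beta.

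**Figure D1:**
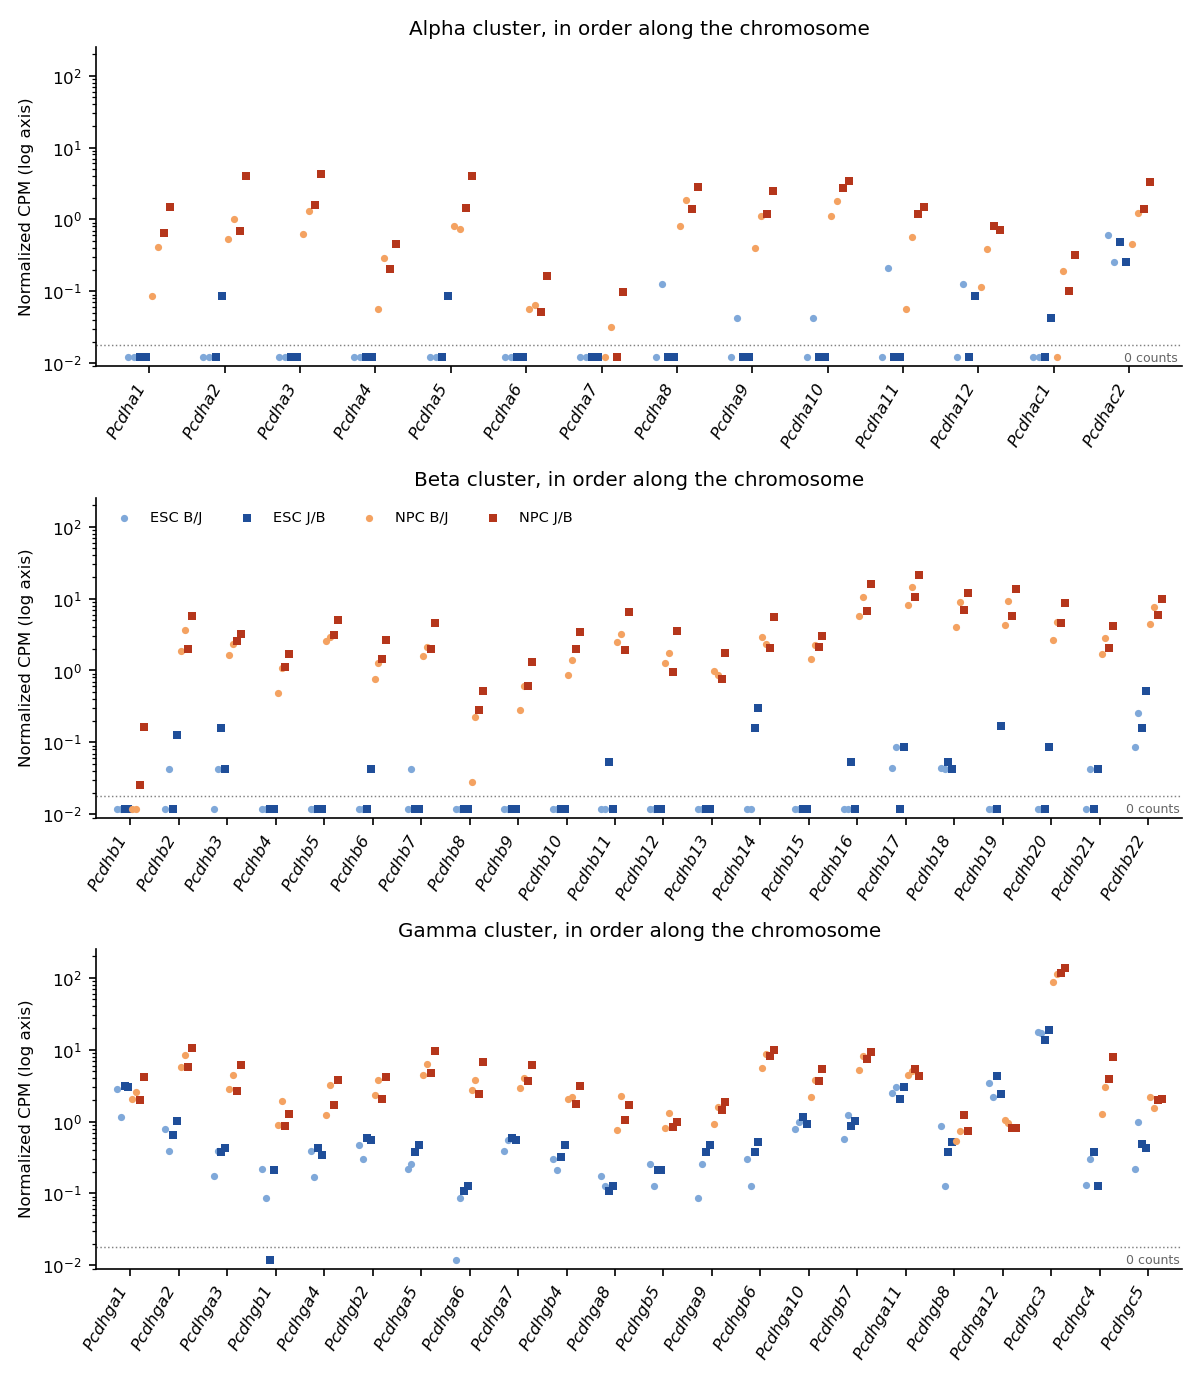
Level of each clustered protocadherin (normalized CPM, log axis) in every library, with genes in chromosomal order within the alpha, beta and gamma clusters; circles are B/J, squares are J/B, blue is ESC and orange or red is NPC, and points under the dotted line had 0 counts. Most alpha and beta members sit at or near 0 counts in ESCs, while all gamma members have counts in at least 3 of the 4 ESC libraries, with Pcdhgc3 above all other members in every library.

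The summed levels show the same contrast. The 14 alpha genes together reached 0.608 and 0.813 in the B/J and 0.480 and 0.554 in the J/B ESC libraries, then 5.10 and 11.1 in the B/J and 13.4 and 29.2 in the J/B NPC libraries. The 22 beta genes summed to 0.174 and 0.556 in B/J ESCs, 0.640 and 1.45 in J/B ESCs, 50.0 and 84.8 in B/J NPCs, and 65.6 and 134 in J/B NPCs. The 22 gamma genes summed to 32.7 and 30.0 in B/J ESCs, 30.9 and 36.0 in J/B ESCs, 140 and 191 in B/J NPCs, and 180 and 239 in J/B NPCs. No NPC library overlapped an ESC library in any of these sums. The ratio of the mean sums, NPC to ESC, was 23.9 for alpha, 119 for beta and 5.78 for gamma. Within B/J it was 11.4, 185 and 5.26, and within J/B 41.1, 95.6 and 6.27. With scaling to Gapdh, Gusb and Tbp it was 39.4, 187 and 9.14 over both crosses. The beta ratio rested on 63 counts in all ESC libraries, of which 34 came from J/B ESC replicate 2, and was 183 without that library. In ESCs the gamma cluster thus held nearly all of the clustered protocadherin reads (2881 of 2999 counts), with 63 on beta and 55 on alpha genes, and 35 of the alpha counts were on Pcdhac2.

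Counts in ESCs were sparse gene by gene. No count was recorded in any ESC library for 14 members, of which 5 were alpha and 9 beta, and 26 members had at most 3 counts over the 4 ESC libraries. Between 25 and 37 of the 58 members had a count in an ESC library, and between 55 and 58 in an NPC library. A member with 0 of the counts of an ESC library could have had a level of up to 0.128 to 0.160, the worth of 3 counts.

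**Figure D2:**
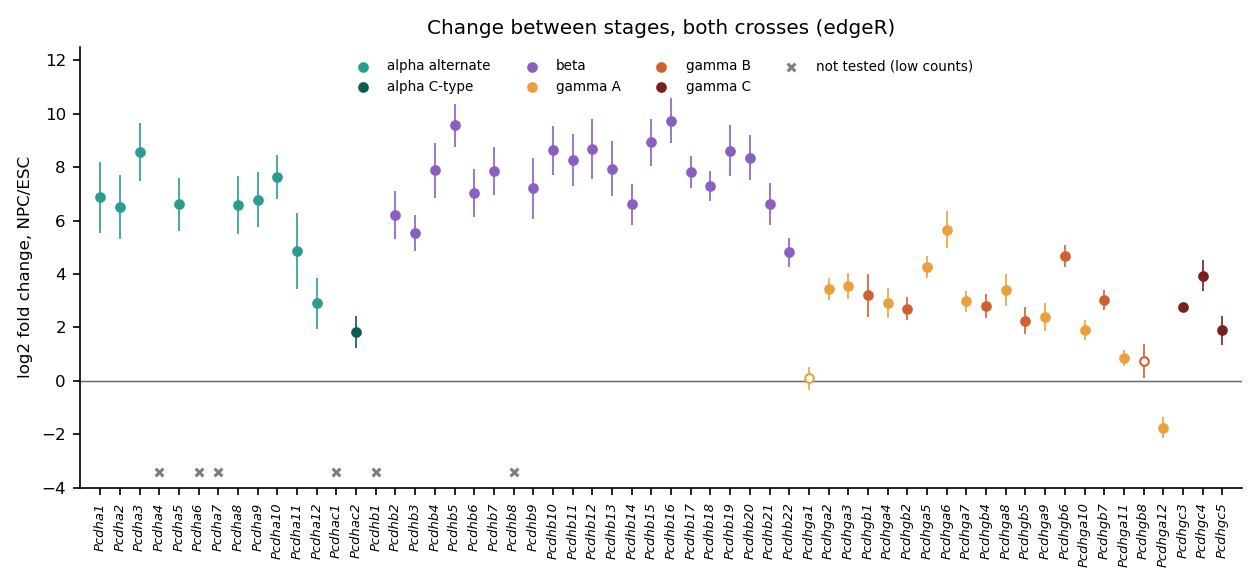
log2 fold change, NPC over ESC across both crosses, with its standard error for each clustered protocadherin that passed the low-count filter; filled points passed an adjusted p of 0.05, open points did not, and crosses mark members with too few counts. The beta members lie between 4.81 and 9.75, and Pcdhga12 is the only point below 0.

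Over both crosses the beta cluster had the largest median rise. Within B/J the median log2 fold change was 7.78 for beta and 5.35 for alpha, but within J/B it was 7.63 for beta and 8.07 for alpha. Beta protocadherins have extracellular and membrane-spanning parts and, unlike alpha and gamma, no constant cytoplasmic part. Of the 22 beta members 20 rose, by log2 fold changes of 4.81 (Pcdhb22) to 9.75 (Pcdhb16). With so few ESC counts, a beta member could enter the test only through its NPC counts; with no low-count filter 21 of the 22 rose. The 2 not tested had few counts in NPCs too: Pcdhb1, at the 5' end of the cluster, had 0, 0, 1 and 5 counts in the NPC libraries, and Pcdhb8 had 1, 7, 11 and 16, with none in ESCs.

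Pcdhb17 was the most abundant beta member. Its level was 0.0434 and 0.0855 in B/J ESCs, 0 and 0.0853 in J/B ESCs, 8.09 and 14.5 in B/J NPCs, and 10.7 and 21.1 in J/B NPCs. The groups did not overlap, and the log2 fold change was 7.82 (SE 0.611, adjusted p = 3.79e-05). Per kb of its own exon, Pcdhb17 supplied 15.0% to 16.6% of the beta cluster in each NPC library, the largest share in all 4.

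Its neighbours Pcdhb16 and Pcdhb18 came next by mean level per kb in NPCs (1.87 ± 0.888 and 1.58 ± 0.669 per kb, SD, n = 4). Pcdhb20 (1.44 ± 0.705 per kb) did not differ from Pcdhb18 beyond their spread, and its share was higher in J/B replicate 2 (8.01% beside 7.90%). Pcdhb19 stood at 1.16 ± 0.586 per kb and ranked 7 of 22 by mean share. As shares of the beta cluster per kb Pcdhb16, Pcdhb18 and Pcdhb19 held 9.86% ± 0.889, 8.41% ± 1.05 and 6.02% ± 0.767, and Pcdhb19 lay below the other 2 in every NPC library. Pcdhb16 had 1 count in all ESC libraries, in J/B replicate 1 (0.0533), and 5.70, 10.7, 6.78 and 16.0 in the NPC libraries (B/J 1 and 2, J/B 1 and 2). The pooled ratio was 840 with a 95% counting interval of 150 to 33194, and the log2 fold change was 9.75 (SE 0.837, adjusted p = 9.33e-05). This interval shows how little the ESC count fixes the size of the rise. Pcdhb18 had 1 count in each ESC library (0.0426 to 0.0533) and 4.05, 8.91, 6.88 and 12.1 in the NPC libraries, a log2 fold change of 7.30 (SE 0.551). Pcdhb19 had 4 counts in J/B ESC replicate 2 (0.171), none in the other 3 ESC libraries, and 4.27, 9.35, 5.78 and 13.7 in the NPC libraries, a log2 fold change of 8.62 (SE 0.956). In Pcdhb16, Pcdhb18 and Pcdhb19 J/B replicate 2 was the highest NPC library and B/J replicate 1 the lowest.

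Pcdhb22, the last beta gene, had 2 to 12 counts in each ESC library; Pcdhb18 was the other beta gene with a count in all 4. The ESC levels of Pcdhb22 were 0.0868 and 0.257 (B/J) and 0.160 and 0.512 (J/B), and its NPC levels 4.39, 7.73, 5.99 and 9.92. Its log2 fold change of 4.81 (SE 0.546, adjusted p = 0.000166) was the smallest among the beta members, and it led the beta cluster per kb in 3 of the 4 ESC libraries. Pcdhb1, the beta member with the fewest counts, lies at the opposite end.

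Members with no ESC count allow only lower bounds. Against 3 counts over the 4 ESC libraries, Pcdhb5 was at least 99.8-fold higher in NPCs (2.56, 2.94, 3.12 and 5.07), Pcdhb15 at least 64.1-fold (1.42, 2.27, 2.1 and 3.0), Pcdhb10 at least 56.1-fold (0.855, 1.40, 2.0 and 3.46) and Pcdhb12 at least 52.6-fold (1.25, 1.72, 0.947 and 3.49). All 4 passed the test, with adjusted p of 0.000167, 0.000308, 0.000451 and 0.000953. An antisense gene covers 1927 bp of the 3034-bp exon of Pcdhb12. Pcdhb20 had 2 counts in J/B ESC replicate 2 (0.0853) and 2.65, 4.76, 4.53 and 8.63 in NPCs, a ratio of 223 (61.4 to 1843); its log2 fold change was 8.36 (SE 0.845). Pcdhb7 had 1 count in B/J ESC replicate 2 (0.0428) and 1.60, 2.14, 2.0 and 4.56 in NPCs, a ratio of 222 (39.6 to 8799); its log2 fold change was 7.85 (SE 0.890). NPC libraries were separated from ESC libraries in all 6 genes.

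The alternate alpha members rose from 19 counts over the 4 ESC libraries to 1719 over the NPC libraries. The alpha proteins share a cytoplasmic part that binds kinases such as Fyn, and they are abundant in neurons. Of the 12, 9 rose, by log2 fold changes of 2.90 (Pcdha12) to 8.56 (Pcdha3), and 3 were not tested. These genes too entered the test through their NPC counts; with no low-count filter 10 of the 12 rose. B/J ESC replicate 1 and J/B ESC replicate 1 had no count on any alternate alpha member. Pcdha12 did not keep its call in all refits: its adjusted p was 0.0278, its log2 fold change of 2.90 ranged from 2.36 to 6.40 over 18 settings including the one reported, and the call was lost in 5 of them. Pcdha11 (log2 fold change 4.87, adjusted p = 0.0189) lost its call in 1 of 18; antisense exons cover 2446 bp of its own exon.

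Pcdha3 had no ESC count and stood at 0.627 and 1.31 in B/J NPCs and 1.56 and 4.23 in J/B NPCs, at least 55.2-fold higher (adjusted p = 0.000887). Pcdha10 had 1 count in B/J ESC replicate 2 (0.0428), and 1.11, 1.82, 2.71 and 3.46 in the NPC libraries. Its ratio was 201 (95% counting interval 35.8 to 7952) and its log2 fold change 7.63 (SE 0.839, adjusted p = 0.000252). For both genes the J/B NPC libraries lay above the B/J NPC libraries. Per kb, Pcdha10 was the highest alternate alpha member in NPCs, at 0.910 ± 0.410 per kb (SD, n = 4), but it led in only 2 of the 4 libraries; Pcdha8 led in B/J replicate 2 and Pcdha5 in J/B replicate 2. Pcdha4, Pcdha6 and Pcdha7 had at most 14, 5 and 3 counts in an NPC library, and they are the 3 members whose variable exon is also in a read-through gene.

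The C-type members of the alpha cluster behaved less uniformly. Pcdhac2 was the one alpha gene with counts in every ESC library, at 0.608 and 0.257 in the B/J libraries and 0.480 and 0.256 in the J/B libraries. In NPCs it stood at 0.456 and 1.25 (B/J) and at 1.38 and 3.36 (J/B), and B/J NPC replicate 1 lay within the ESC range. Its log2 fold change was 1.83 (SE 0.600, adjusted p = 0.0260). The call was lost when any of 4 libraries (replicate 2 of each group) was left out, with adjusted p from 0.0714 to 0.105, and with a replicate block within each stage, added after seeing the data (log2 fold change 0.55, adjusted p = 0.342). Pcdhac1 had 1 count in J/B ESC replicate 2 and 0, 6, 4 and 10 counts in the NPC libraries, a ratio of 13.0 with a counting interval of 2.08 to 538, and was not tested.

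In the gamma cluster, 1 gene supplied most of the reads. Pcdhgc3, a C-type member whose protein has roles in dendrite growth, stood at 17.6 and 16.9 in B/J ESCs, 13.8 and 19.0 in J/B ESCs, 87.4 and 113 in B/J NPCs, and 117 and 139 in J/B NPCs. The rise was 6.67-fold in pooled counts, and the log2 fold change was 2.75 (SE 0.171, adjusted p = 1.87e-05). Per kb of own exon it made up 53.5% ± 4.91 (SD, n = 4) of the gamma cluster in ESCs and 61.7% ± 3.11 in NPCs. At 43.6 ± 8.03 per kb (SD, n = 4) in NPCs it stood above Pcdhgb6, the member that came next, at 3.09 ± 0.670 per kb. Antisense exons cover 1560 of the 2615 bp of its own exon, and their part in this level was not tested.

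The other C-type gamma members were lower. Pcdhgc4, which neurons need for survival during development, stood at 0.130 and 0.299 in B/J ESCs, 0.373 and 0.128 in J/B ESCs, 1.28 and 3.06 in B/J NPCs, and 3.92 and 7.95 in J/B NPCs. Its log2 fold change was 3.94 (SE 0.593, adjusted p = 0.000665). Pcdhgc5, which is largely a gene of mature neurons, stood at 0.217 and 0.984 in B/J ESCs, 0.480 and 0.426 in J/B ESCs, and at 2.19, 1.56, 1.97 and 2.07 in the NPC libraries. Its log2 fold change was 1.89 (SE 0.531, adjusted p = 0.0133). All 3 C-type gamma members were separated between the stages.

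The gamma A and gamma B members, the alternates of the cluster, had counts in nearly every ESC library. Of the 19, 16 rose, 1 fell and 2 did not pass the test. Pcdhga2 stood at 0.781, 0.385, 0.640 and 1.02 in the ESC libraries and 5.70, 8.52, 5.66 and 10.5 in the NPC libraries, a log2 fold change of 3.43 (SE 0.423, adjusted p = 0.000243). Pcdhgb6 stood at 0.304, 0.128, 0.373 and 0.512 in ESCs and 5.64, 8.62, 8.29 and 9.79 in NPCs, a log2 fold change of 4.67 (SE 0.405, adjusted p = 5.36e-05). Its neighbour Pcdhgb7 stood at 0.564, 1.24, 0.854 and 1.02 in ESCs and 5.19, 8.24, 7.47 and 9.31 in NPCs, a log2 fold change of 3.02 (SE 0.381, adjusted p = 0.000272). These 3 genes had similar NPC levels, 2.89 ± 0.900 per kb for Pcdhga2, 3.09 ± 0.670 for Pcdhgb6 and 2.91 ± 0.673 for Pcdhgb7 (SD, n = 4), which did not differ beyond their spread.

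A small group of gamma A members departed from the rest. Pcdhga12 fell from 3.43 and 2.18 in B/J ESCs and 4.27 and 2.39 in J/B ESCs to 1.05 and 0.958 in B/J NPCs and 0.819 and 0.808 in J/B NPCs. The log2 fold change was -1.75 (SE 0.384, adjusted p = 0.00428), and it stayed between -2.04 and -1.11 with adjusted p of at most 0.0295 in all 18 alternatives tried. Per kb it ranked 2 of 22 in the gamma cluster in ESCs (8.71% ± 3.08 of the cluster; SD, n = 4) and 22 of 22 in NPCs (0.457% ± 0.156) by its mean. In single libraries Pcdhga11 was higher in 2 of the 4 ESC libraries, and in NPCs Pcdhgb8 (0.466% ± 0.173) did not differ from it beyond their spread. Its own exon lies at 37898633 to 37901593, immediately 5' of the C-type members, and antisense exons cover 824 of its 2961 bp.

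Pcdhga11, the gamma A gene on the 5' side of Pcdhgb8 and Pcdhga12, rose little. It stood at 2.52, 3.04, 2.03 and 3.03 in ESCs and 4.47, 5.04, 5.45 and 4.33 in NPCs. The stages did not overlap, and the log2 fold change was 0.86 (SE 0.301, adjusted p = 0.0329). It passed the threshold in 11 of the 19 settings, with adjusted p up to 0.102, and lost it with each of 7 libraries left out (all but J/B ESC replicate 2). Antisense exons cover 1393 bp of its own exon.

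The 2 members that were tested and not called were named after their values were seen. Pcdhga1, at the 5' end of the cluster, stood at 2.87, 1.15, 3.15 and 3.07 in ESCs and 2.08, 2.59, 1.97 and 4.20 in NPCs, a log2 fold change of 0.10 (SE 0.424, adjusted p = 0.841). Pcdhgb8 stood at 0.868, 0.128, 0.373 and 0.512 in ESCs and 0.541, 0.734, 1.23 and 0.743 in NPCs, a log2 fold change of 0.75 (SE 0.633, adjusted p = 0.315). Both overlapped between the stages. The sign for Pcdhga1 turned negative in 3 of the 18 alternatives.

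**Figure D3:**
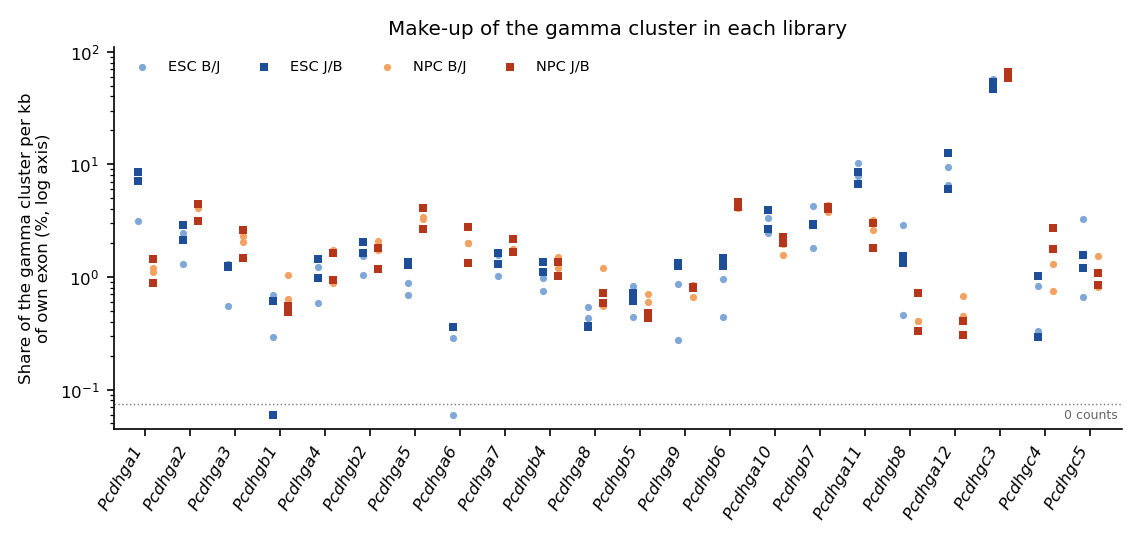
Share of each gamma member in the gamma cluster per kb of its own exon (percent, log axis), with 1 point for each library; symbols and colours are those of the plot of member levels, and points under the dotted line had 0 counts. Pcdhgc3 holds 46.4% to 57.7% in ESCs and 58.8% to 65.5% in NPCs, and Pcdhga12 falls from 6.02% to 12.7% in ESCs to 0.303% to 0.672% in NPCs.

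How evenly the reads were spread within a cluster differed between the clusters in NPCs. The effective number of members (the inverse of the summed squared shares per kb, which equals the number of members when all are equal) was 12.7 to 14.1 of 22 in the beta cluster, 6.81 to 8.60 of 11 in the alpha cluster and 2.29 to 2.80 of 22 in the gamma cluster. In ESCs the gamma value was 2.83 to 4.03. The ESC values for alpha and beta rest on 1 to 10 members with a count and are not compared. The profile over members was alike between NPC libraries: on the log2(normalized CPM + 0.5) scale, Pearson's r over 55 members was 0.910 to 0.966 for the 6 pairs of libraries, as a description, since members differ in exon length, which all libraries share.

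The next comparisons asked whether the change between stages was found in each cross. Within B/J, 44 members rose and 1 fell, beside 30.1% and 25.6% of the genes tested. Within J/B, 48 rose and 1 fell, beside 29.1% and 25.3%. Of the 22 beta members, 20 rose in each cross. Of the 14 alpha members, 7 rose within B/J and 10 within J/B. In Pcdhac2, the log2 fold change was 0.97 within B/J (adjusted p = 0.348) and 2.68 within J/B (adjusted p = 0.0314). The fall of Pcdhga12 was -1.48 within B/J (adjusted p = 0.0475) and -2.02 within J/B (adjusted p = 0.0160). The call within B/J was lost without any of 6 libraries (every B/J library and both J/B NPC libraries), and that within J/B without J/B ESC replicate 1 or either J/B NPC library.

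The difference between the crosses in this change was tested by the interaction of stage and cross. No member passed (edgeR, adjusted p above 0.99 for each), nor did any gene of 16399 (0%). For the 9 members tested with no ESC count the interaction could not be estimated (SE of 600 to 4226), so their result says nothing. An unadjusted p under 0.05 was found for 1 of the 52 members tested (1.92%) and for 3.49% of all genes; the member was Pcdhb14, named after its values were seen. It had 0 counts in both B/J ESC libraries and 3 and 7 in the J/B ESC libraries, and stood at 2.93, 2.36, 2.02 and 5.49 in the NPC libraries. Its log2 interaction was -5.24 (SE 1.72). DESeq2 and limma-voom called no member either.

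J/B was then compared with B/J within each stage. In ESCs no member passed (0% of all genes), and Pcdhb14 alone (1.92% of the members tested, beside 2.11% of all genes) had an unadjusted p under 0.05. The 9 members tested with no ESC count could show no difference there. DESeq2 and limma-voom called no member. In NPCs no member passed (edgeR, smallest adjusted p = 0.770), none had an unadjusted p under 0.05, and DESeq2 and limma-voom called none; 0.00610% of all genes passed. Still, 48 of the 52 members tested were higher in J/B NPCs, with a median log2 fold change of 0.50, beside 0.01 over all genes. The median was 1.59 for 10 alpha, 0.55 for 20 beta and 0.31 for 22 gamma members. Both J/B NPC libraries lay above both B/J NPC libraries in 19 of the 58 members (32.8%), beside 18.1% of the genes tested, and below in 1, Pcdhga12, beside 21.1%. Of the 19, 17 were among the members tested, and 8 were alpha, 8 beta and 3 gamma genes.

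This shift was smaller without the library at either end, while the alpha median stayed at 0.79 or above. J/B NPC replicate 2 was the highest of the 4 NPC libraries in 50 of the 58 members, and B/J NPC replicate 1 the lowest in 42. The same shares over all genes were not taken, so these counts cannot be read as a trait of the members. Between NPC libraries of the same number, which are not said to be paired, each cluster sum was higher in J/B. The alpha sums were 5.10 and 13.4 in replicate 1 and 11.1 and 29.2 in replicate 2 (B/J, then J/B). Without J/B NPC replicate 2 the median over the members was 0.07 with 29 of 52 positive, and it was 0.79 for alpha, 0.03 for beta and -0.22 for gamma. Without B/J NPC replicate 1 it was 0.23 over the members, 0.94 for alpha, 0.34 for beta and 0.05 for gamma. Between the stages, with each library left out in turn, the ratio of the mean sums was 16.1 to 29.1 for alpha, 94.8 to 183 for beta and 5.25 to 6.27 for gamma.

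Some marker sums ran with the members over the NPC libraries and others did not. The summed level of 10 neuron markers was 299 in B/J replicate 1, 1050 in B/J replicate 2, 805 in J/B replicate 1 and 1622 in J/B replicate 2. The sum over all 58 members was 195, 287, 259 and 402 in the same libraries, in the same order from lowest to highest, and so were the beta and gamma sums. The alpha sum differed in order, since J/B replicate 1 (13.4) lay above B/J replicate 2 (11.1). The 10 trophoblast markers ran the other way at the ends, with 3154 in B/J replicate 1, 1612 and 1625 in the next 2 and 1094 in J/B replicate 2. The neural precursor sum (573, 1079, 1499 and 1274 in the same libraries) and the fibroblast and mesenchyme sum (3429, 2791, 2084 and 3045) did not follow the members' order. Of the 10 neuron markers 8 rose and 1, Stmn2, fell between the stages (with scaling to Gapdh, Gusb and Tbp, 9 rose and none fell), and their summed ESC levels were 329 to 460. Stmn2 carried much of the ESC sum. Without it, a choice made after its values were seen, the other 9 markers summed to 107 to 177 in the ESC libraries and to 271, 955, 735 and 1492 in the NPC libraries, in the same order as above. The sum over all members was 31.4 to 38.0 in the ESC libraries. The part of these cell types in the levels of the members was not tested.

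**Figure D4:**
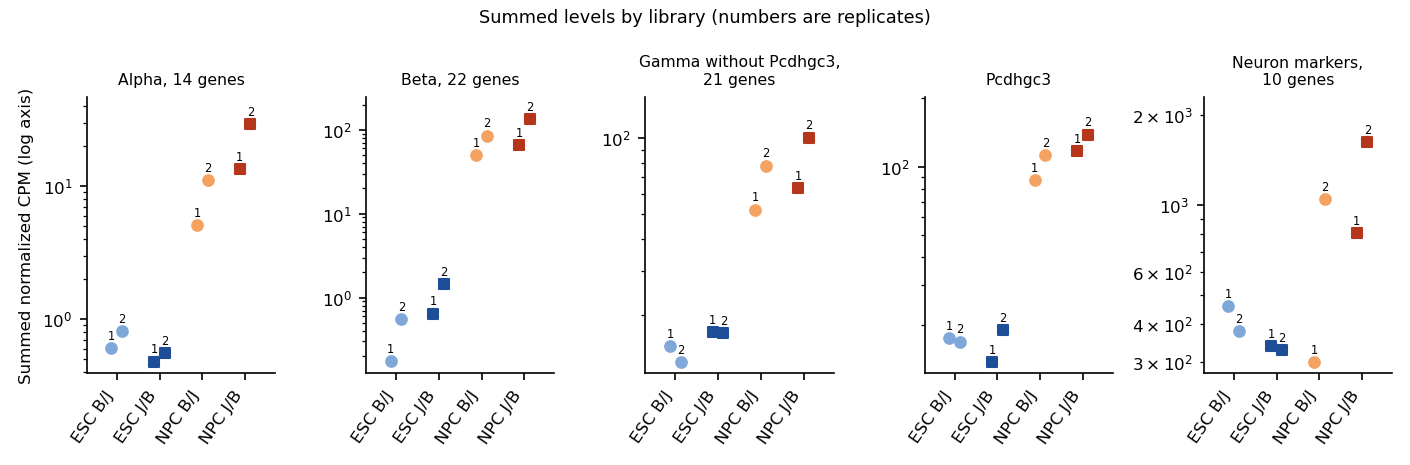
Summed level (normalized CPM, log axis) in each library of the alpha cluster, the beta cluster, the gamma cluster without Pcdhgc3, Pcdhgc3 itself and 10 neuron markers; symbols and colours are those of the plot of member levels and the numbers beside points are replicates. Every NPC library exceeds every ESC library in the first 4 panels, and in the last B/J NPC replicate 1 (299) lies below the ESC libraries with Stmn2 in the sum, and above them (271 beside 107 to 177) without it.

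The protocadherins outside the clusters, which lie singly across the genome, were compared with the members. Of 12, 11 rose and none fell, beside 37.5% and 31.9% of all genes tested, with a median log2 fold change of 4.16. Pcdh10, a homophilic adhesion protein of developing neurons, rose by 4.46 (SE 0.695, adjusted p = 0.000823), and Pcdh9 by 5.65 (SE 0.676). Pcdh12, which is known from endothelium and trophoblast, had 1 count in all ESC libraries and stood at 157, 79.3, 69.5 and 54.8 in the NPC libraries; the endothelial cadherin Cdh5 followed the same order of libraries (772, 385, 256 and 210), while of the other endothelial markers Kdr rose between the stages (log2 fold change 4.09), Pecam1 fell (-2.35) and Tek did not pass (-0.69). Pcdh19 stood at 12.4 ± 3.75 in ESCs and 12.1 ± 7.67 in NPCs (SD, n = 4) and did not pass the test (adjusted p = 0.649). Pcdh12 was thus highest in the library where most clustered members were lowest.

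With TMM scaling, transcripts of CTCF and the cohesin complex fell or did not pass the test. Of 11 genes of CTCF and the cohesin complex, 4 fell and none rose, near the 31.9% of all genes tested that fell: Ctcf (log2 fold change -0.95), the cohesin subunits Smc1a (-0.91) and Smc3 (-1.02), and the cohesin release factor Wapl (-1.24). These depend on scaling. The median over all genes moved from 0.17 with TMM to 0.65 with library totals and 0.80 with scaling to Gapdh, Gusb and Tbp. With library totals the list gave 2 higher and 4 lower, beside 48.9% and 20.9% of all genes tested. With scaling to Gapdh, Gusb and Tbp it gave 2 higher and 1 lower, beside 51.6% and 17.2%. Rad21, Stag1, Stag2 and Nipbl did not pass (log2 fold changes of -0.34, -0.20, 0.15 and -0.19).

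Of 12 silencing factors, 7 fell and 1 rose, beside 31.9% and 37.5% of all genes tested. With library totals 6 fell and 1 rose, beside 20.9% and 48.9%. With scaling to Gapdh, Gusb and Tbp 5 fell and 2 rose, beside 17.2% and 51.6%. The largest falls were in Dnmt3l, a cofactor of de novo DNA methylation (-5.36), in the de novo methyltransferase Dnmt3b (-3.28), and in Trim28, a corepressor that recruits histone methylation (-2.60). Uhrf1 and Dnmt1, which maintain DNA methylation, fell by 2.02 and 1.05 on the log2 scale, Setdb1, an H3K9 methyltransferase, by 0.95, and Ezh2, the H3K27 methyltransferase, by 0.78. Smchd1, a chromatin protein known to repress the clustered protocadherins, stood at 132 ± 31.6 in ESCs and 127 ± 7.52 in NPCs (SD, n = 4; log2 fold change -0.05, adjusted p = 0.812). Dnmt3a did not pass either (-0.01).

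Of 15 partners of protocadherin signalling and processing, 11 rose and 2 fell, beside 37.5% and 31.9% of all genes tested. Adam10, the protease that sheds protocadherin ectodomains, rose by 2.12 (SE 0.124, adjusted p = 1.62e-05), and Ncstn, of the gamma-secretase that cuts what remains, by 0.90. Fyn rose by 1.5 and Ptk2 (focal adhesion kinase), which alpha and gamma tails bind and inhibit, by 0.62. Axin1, a binding partner of Pcdhgc3, fell by 0.93, and Pdcd10, an adaptor that binds gamma tails, by 0.94. With scaling to Gapdh, Gusb and Tbp 12 genes of this list rose and none fell, beside 51.6% and 17.2% of all genes tested.

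Genes beside the clusters moved in both directions. Of 10 flanking genes, 4 rose and 5 fell, with a median of -0.53, beside 37.5% and 31.9% of all genes tested. With library totals or housekeeping scaling 5 rose and 5 fell. All genes tested then rose and fell in 48.9% and 20.9%, or in 51.6% and 17.2%. Taf7 and Slc25a2 lie between the beta and the gamma cluster on the minus strand: Taf7, a TFIID subunit, fell from 173 ± 10.6 to 58.9 ± 6.47 (SD, n = 4; log2 fold change -1.56, adjusted p = 3.36e-05), while Slc25a2, a mitochondrial ornithine carrier, rose from 0.251 ± 0.0918 to 0.828 ± 0.163 (1.77, adjusted p = 0.0111). On the 5' side of the alpha cluster, Zmat2, Hars and Dnd1 fell (-0.99, -1.33 and -3.66). On the 3' side of the gamma cluster, Diaph1 fell (-1.52), Fchsd1, Rell2 and Ndfip1 rose (1.58, 1.60 and 1.67), and Hdac3 did not pass (-0.07).

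**Figure D5:**
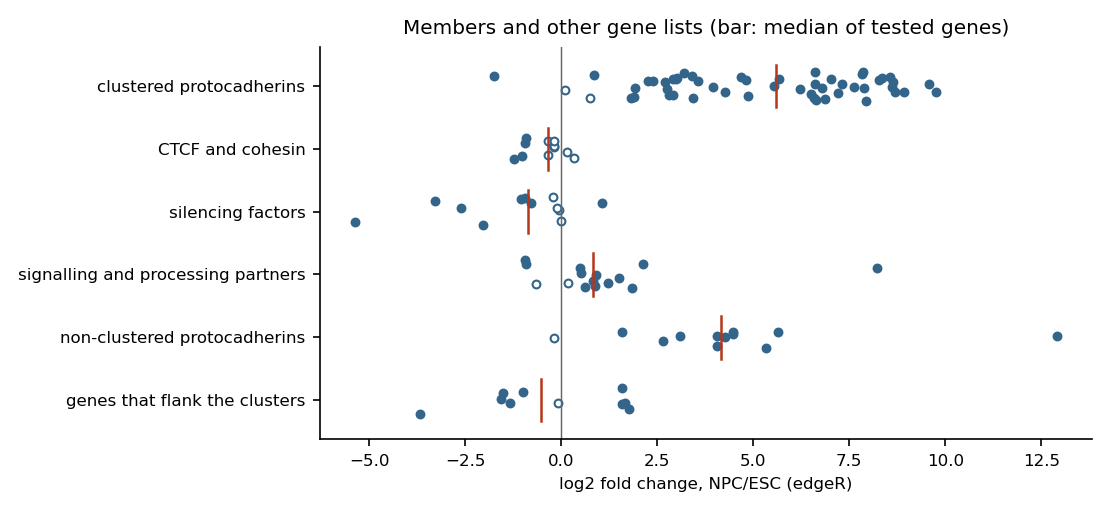
log2 fold change, NPC over ESC across both crosses, for the clustered protocadherins tested and for 5 other gene lists; filled points passed an adjusted p of 0.05, open points did not, and the red bar is the median of the genes tested in the list. The medians are 5.60 for the members, 4.16 for the non-clustered protocadherins and -0.53 for the flanking genes.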

How the data were processed

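The authors aligned paired-end poly(A) reads with TopHat2 to mm39 with JF1 variant positions masked, kept proper pairs of high mapping quality, and deposited raw counts per gene, summed over alleles, for 8 libraries (4 groups of 2). HTSeq, DESeq2 and edgeR are also named in the submitters' processing notes; their versions are not given, alignment used a stranded setting, and whether counting used strand is not stated. Kits and sequencers differed, and which library had which is not stated, so no batch could be formed. The authors' entries for reads without a gene (5.76% to 10.9%) or with several genes (0.355% to 0.554%) were left out of totals. These percentages are of gene counts and all such entries together. Library depths are given above.

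The 4 groups were fitted in R 4.3.3 with edgeR 4.0.16 (TMM, filterByExpr with a minimum count of 10, robust quasi-likelihood, common dispersion 0.113), which kept 16399 genes. P-values were adjusted over all of them, with a threshold of 0.05. SE is the log2 fold change divided by the square root of F. Alternatives were other scalings (DESeq2's factors, library totals, housekeeping genes), DESeq2 1.42.0, voom in limma 3.58.1, other low-count filters, no robust estimation, a replicate block, the 4 libraries of a cross alone, and each library left out; a lone library was assumed to vary like the others. A replicate block within each stage was added after seeing the data. The fits were tested on simulated data, where DESeq2 made more false calls than edgeR and voom. Ratios of pooled counts have exact conditional 95% intervals, and 0 counts were taken to allow up to 3. Exon lengths and positions came from GENCODE vM39.

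The members, gene lists and tests were chosen with earlier results of these data known. Members named with every library's value were all C-type genes, the 2 of highest mean CPM among alternate alpha, gamma A and gamma B genes, the 5 highest beta genes, the 5 largest rises and falls over both crosses, and the 3 largest changes among those past the threshold in each other comparison, which none passed between crosses. Replicates of a group were not duplicates (chi-square per degree of freedom 60.3 to 84.7). Some genes of the lists are not reported here by name.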

Additional observations from a re-analysis of the deposited data

Results flagged for a closer look

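Among 68 sets of 4 libraries (1 stage of a named member, or a cluster sum), 8 had a library farther from the other 3 than Dixon's 95% limit allows, and chance gives about 1 in 20. That rate has no meaning for 6 of them, in which 3 libraries had 0 counts and any count in the fourth passes the limit. In Pcdhga1 it was B/J ESC replicate 2, at 1.15 normalized CPM beside 2.87 to 3.15 in the other ESC libraries. The other 7 were ESC values of 1 to 4 counts: in J/B replicate 2, Pcdhac1 (0.0426), Pcdhb19 (0.171) and Pcdhb20 (0.0853); in B/J replicate 2, Pcdha10 (0.0428) and Pcdhb7 (0.0428); and in J/B replicate 1, Pcdhb16 (0.0533), beside 0 counts in the other 3 libraries each, and Pcdhb18 (0.0533), where each ESC library had 1 count. No member's change differed between the crosses by the interaction test, which could not estimate a difference for the 9 members tested with no ESC count.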

How the results depend on the processing

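Over both crosses, the lowest count of members that rose was 36 (filter of at least 1 CPM, 38 members fitted), beside 37.2% of all genes. With no low-count filter 50 rose, beside 29.0%. The share of all genes that rose reached 51.6% with scaling to housekeeping genes. In every alternative with all 8 libraries 1 member fell. The fall within B/J (1 member) was 0 with library totals, with scaling to housekeeping genes, with no low-count filter and with the 4 libraries of the cross alone, and 0 to 1 with a library left out. The fall within J/B was 0 with scaling to housekeeping genes and 0 to 1 with a library left out. The alpha ratio was 33.7 with library totals, 39.4 with housekeeping scaling and 16.1 to 29.1 with a library left out, the beta ratio 187 with housekeeping scaling and 94.8 to 183 with a library left out, and the gamma ratio 8.07 with library totals, 9.14 with housekeeping scaling and 5.25 to 6.27 with a library left out. Pcdhga1 turned to -0.15 without B/J ESC replicate 2, -0.22 without J/B NPC replicate 2, and -0.58 with a replicate block within each stage; the cause was not tested.

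Replicate numbers are not said to pair samples. Deviations of same-numbered libraries correlated by 0.61 between ESC groups and 0.51 between NPC groups, and by 0.05 to 0.09 across stages. With a replicate block 49 members rose and 1 fell over both crosses, beside 39.9% and 33.3% of all genes. With the block within each stage it was 48 and 1, beside 38.1% and 31.9%. Under that block Pcdhac2 had a log2 fold change of 0.55 (adjusted p = 0.342). Members with few ESC counts are limited by depth: a count of 0 allows up to 0.128 to 0.160 normalized CPM in an ESC library.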
